A study of Bos taurus with 14 samples.

Results

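In the liver count table of newborn calves, 5 of 27607 genes were taken as mitochondrial ribosomal RNA (biotype Mt_rRNA) or mitochondrial transfer RNA (Mt_tRNA) genes. They were 2 Mt_rRNA genes, ENSBTAG00000043567 and ENSBTAG00000043570, and 3 Mt_tRNA genes, ENSBTAG00000043545, ENSBTAG00000043572 and ENSBTAG00000043582. The biotypes came from the study's list of differentially expressed genes, so all 5 had already been selected for a difference between the diets. Their difference between the diets is therefore given as a description, with no test. The sources used here pair the 5 genes with no symbol, and they are called by their Ensembl identifiers.

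The livers came from female calves of crossbred Angus-based heifers bred to a single bull. Dams of the CON calves received a basal diet, and dams of the VTM calves received the same basal diet plus 113 g of a vitamin and mineral premix per heifer and day, from 60 days before breeding through gestation. All calves received the same colostrum and milk replacers, and livers were taken at 30 h of age, from 7 calves per group. The study analysed 6 calves per group, after setting aside CON calf 19 and VTM calf 10 for a low rate of uniquely aligned reads. Each library is 1 calf, so the spread between libraries includes both the calves and the library preparation.

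Mitochondrial DNA is transcribed as long precursors from both strands. The tRNAs lie between the other genes and are cut out, which frees the 2 rRNAs of the mitochondrial ribosome and the mRNAs for subunits of the respiratory chain. Most mitochondrial mRNAs carry a poly(A) tail, the rRNAs carry only a short stretch of added A residues, and mature tRNAs end in CCA with no tail. In libraries made from poly(A) RNA, as these are labelled, the count of rRNA relative to mRNA from the same organelle therefore depends on how the RNA was selected as well as on the tissue. Reads on a tRNA gene can come from the tRNA or from an uncut precursor, and gene counts cannot tell the 2 apart. In the RefSeq annotation of the cow, 16 of the 22 mitochondrial tRNA genes border an rRNA or protein-coding gene, and 1 lies between the 2 rRNA genes.

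Total counts ranged from 13382264 to 20125409 per library. Several libraries stood apart. VTM calf 40 had 15395 genes at 0 and 318 genes with 1 to 9 counts, CON calf 31 had 13397 and 1531, CON calf 19 had 13079 and 1265, and CON calf 25 had 12497 and 2257, whereas the other libraries had 2719 to 3349 genes with 1 to 9 counts. The 12 mitochondrially encoded mRNAs named in the study's gene tables took 18.1% of all counts in CON calf 31 and 8.57% in CON calf 25, against 1.89% to 4.31% in the other libraries. The RefSeq annotation holds 13 mitochondrial protein-coding genes, so this sum, used as mitochondrial mRNA below, is not complete. Counts of a gene left out fall outside the mitochondrial genes used here. Of the 12 hepatocyte markers listed, the 2 that these tables pair with an identifier were detected in every library, with AHSG (fetuin-A) at 3162 to 15513 CPM (counts per 1000000 counts of the library) and TTR (transthyretin) at 123 to 1554 CPM, the lowest in CON calf 19. Markers of other cell types could be paired only through the same tables, which were chosen on the diet contrast. The summed level of 6 of 8 stellate cell and fibroblast genes was 1693 to 6234 CPM in CON and 1458 to 3016 CPM in VTM calves. These were COL1A1, COL1A2, COL3A1, DCN, LRAT and VIM. The study reports LRAT as higher in VTM calves, so the sum does not stand for each gene. That of 3 of 5 cholangiocyte genes (KRT19, KRT7 and SOX9, 1 of them at 0 in at least 1 library) was 37.3 to 112.2 and 26.6 to 81.1 CPM. Of 6 endothelial genes, ROBO4 alone was paired, at 14.6 to 35.1 CPM in CON and 6.54 to 13.6 CPM in VTM calves. The study names it among its most significant genes, so this difference is not independent of how it was paired. No erythroid, Kupffer cell or muscle marker was paired. The part of cell composition in the results below was not tested. In bulk liver, fewer cells of a type and less RNA per cell cannot be told apart.

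The 2 rRNA genes held nearly all counts of the group, from 94.4% of them in CON calf 31 to 99.7% in CON calf 19. ENSBTAG00000043567 ranged in CON calves from 85.9 CPM (calf 37) over a median of 323.2 to 1912 CPM (calf 19). In VTM calves it ranged from 83.7 CPM (calf 28) over a median of 124.5 to 290.1 CPM (calf 40). The groups overlapped at their low ends, and 4 of the 7 CON calves lay above the highest VTM calf.

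ENSBTAG00000043570 ranged from 181.9 CPM (calf 37) over a median of 605.6 to 3408 CPM (calf 19) in CON calves. In VTM calves it stayed between 156.9 CPM (calf 28) and 292.6 CPM (calf 34), with a median of 231.4. Again 4 CON calves, 7, 19, 25 and 31, were above every VTM calf, and calf 37 was among the lowest of all 14 libraries.

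The levels of the 2 rRNAs moved together across libraries, with r = 0.96 on the log2 CPM scale over the 14 calves and 0.93 without CON calf 19. The ratio of ENSBTAG00000043570 to ENSBTAG00000043567 counts was 1.68 ± 0.27 in CON and 1.83 ± 0.47 in VTM calves (mean ± SD, n = 7 each). Counts were not divided by length, so this ratio is read only between calves. It was lowest in VTM calf 40, at 0.952, where ENSBTAG00000043567 had more counts than its partner, and between 1.34 and 2.30 in the others.

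The 3 tRNA genes had few counts. ENSBTAG00000043545 had 98 to 1609 counts in CON calves (median 151) and 82 to 172 in VTM calves (median 146). On the CPM scale these were 5.42 to 90.8 in CON and 4.49 to 8.92 in VTM calves. The high end was held by CON calves 31 (90.8 CPM) and 25 (34.9 CPM), and the other 5 CON calves lay at 11.3 CPM or less, close to or within the VTM range.

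ENSBTAG00000043572 had 28 to 179 counts in CON and 18 to 39 in VTM calves, or 1.55 to 10.1 CPM (median 2.33) and 1.01 to 2.41 CPM (median 1.57). CON calves 25 (6.60 CPM) and 31 (10.1 CPM) were again highest, and CON calf 7, at 2.51 CPM, was the only other one above the highest VTM calf.

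ENSBTAG00000043582 had the fewest counts, 6 to 111 in CON and 0 to 25 in VTM calves, or 0.392 to 6.40 CPM (median 2.16) and 0 to 1.44 CPM (median 0.673). In VTM calf 40, the library with the fewest genes at 1 to 9 counts, it had 0 counts. Under counting error only, this allows a level of up to 0.185 CPM (3 counts in that library). With only 318 genes at 1 to 9 counts there, a 0 may not follow counting error, and the level may be higher. Of the CON calves, 6 lay above every VTM calf and calf 1 lay below all but VTM calf 40. CON calf 19, the highest library for both rRNAs, lay within the range of the other libraries for each tRNA gene, at 2.33 CPM of ENSBTAG00000043572 and 2.55 CPM of ENSBTAG00000043582.

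**Figure D1:**
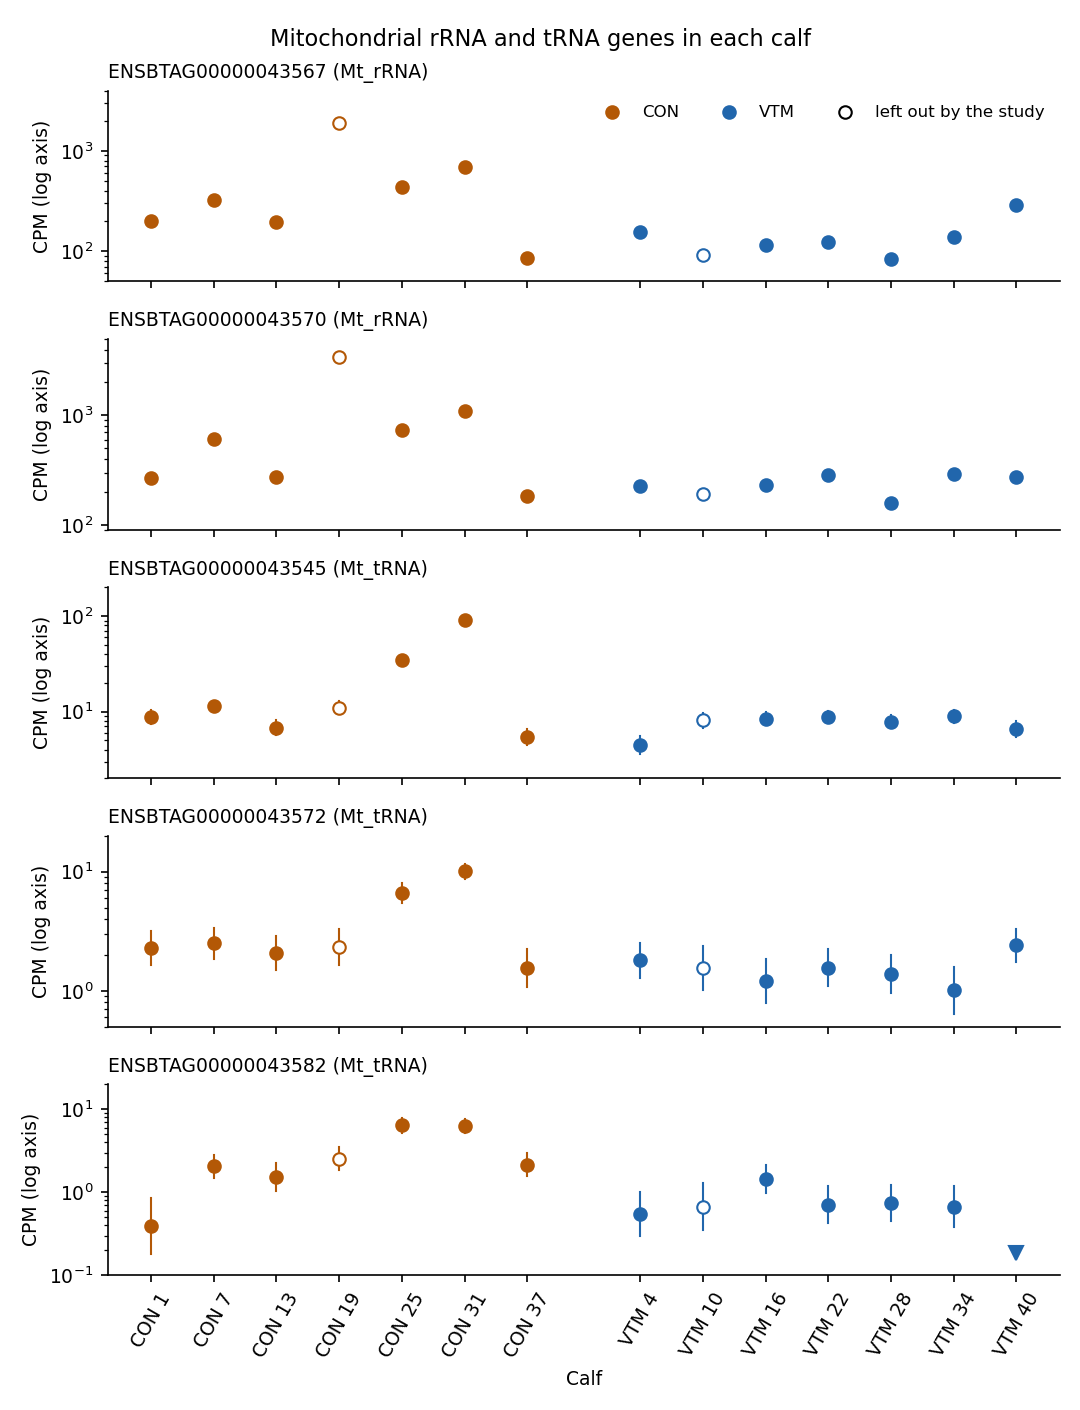
CPM (log axis) of the 2 Mt_rRNA and 3 Mt_tRNA genes in each calf, with 95% Wilson intervals for counting error and open symbols for the 2 calves the study left out; the triangle marks 0 counts and is drawn at the level of 3 counts. CON calf 19 is highest for both rRNAs (1912 and 3408 CPM) and CON calves 25 and 31 are highest for the 3 tRNAs.

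In the fit across all genes on the 12 calves of the study, the log2 fold change of VTM relative to CON was -1.34 (standard error 0.50) for ENSBTAG00000043567 and -1.33 (0.46) for ENSBTAG00000043570. It was -2.18 (0.73), -1.70 (0.57) and -2.42 (0.81) for the tRNA genes ENSBTAG00000043545, ENSBTAG00000043572 and ENSBTAG00000043582. All 5 of 5 passed the study's threshold (an unadjusted p up to 0.05 and a log2 change of 0.5 or more either way) in edgeR's quasi-likelihood test, where 494 of 13307 genes (3.71%) did, 379 of them lower in VTM (2.85%), and the median over all genes was -0.02. They had been chosen with this threshold in DESeq2, which called 4.73% of the genes (3.53% lower in VTM), so nothing is read from that count. The one nearest to its limit was ENSBTAG00000043567, with an unadjusted DESeq2 p of 0.00478, and other mitochondrial tRNA genes were not analysed here. After Benjamini-Hochberg adjustment no gene passed 0.05 in edgeR (690 at an unadjusted p of at most 0.05) or DESeq2 (880), and the adjusted p of each of the 5 in edgeR was 0.791.

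The 12 mRNAs had log2 fold changes from -1.13 (ND6) to -1.71 (ND3) in the same fit. The 2 rRNAs lay inside the range of the mRNAs, 1 tRNA lay inside it, and the other 2 tRNAs lay beyond it. The rRNAs lay inside it only through ND6, because the next smallest change among the mRNAs was -1.45 (ATP8). All of these fits rest on the same 6 CON calves, in which calves 25 and 31 held the largest mitochondrial shares.

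Without CON calf 31, the values were -0.76 and -0.78 for the rRNAs and -0.94, -1.01 and -1.92 for the tRNAs, and 2 of 5 passed the threshold (ENSBTAG00000043570 and ENSBTAG00000043582), where 2.12% of all genes did (1.5% lower in VTM). Without CON calves 25 and 31, they were -0.32 and -0.32 for the rRNAs and -0.01, -0.33 and -1.01 for the tRNAs, and 0 of 5 passed, where 1.93% of all genes did (1.25% lower in VTM). This pair was left out after its values were seen, and leaving out the highest CON calves lowers a difference by construction. With all 14 calves, on which 2.07% of genes passed (1.62% lower in VTM) and again 5 of 5, the rRNAs stood at -2.01 and -2.02 and the tRNAs at -2.0, -1.56 and -2.33. Adding CON calf 19 and VTM calf 10 thus widened the difference of the rRNAs and not that of the tRNAs.

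**Figure D2:**
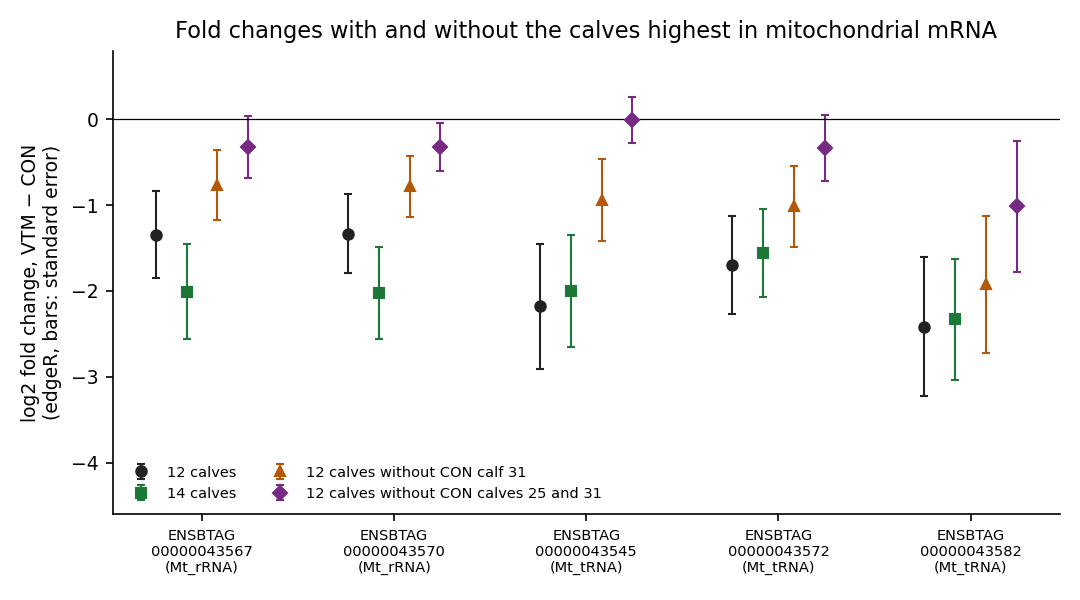
Log2 fold change of VTM relative to CON (edgeR; bars are standard errors) for each of the 5 genes on 4 sets of calves. All 5 lie between -1.33 and -2.42 on the 12 calves of the study and between -0.01 and -1.01 once CON calves 25 and 31 are left out.

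The level relative to mitochondrial mRNA was compared next, because it does not depend on how much of the library the mitochondria took. Summed counts of the 2 rRNAs were 0.989% (calf 31) to 12.3% (calf 19) of the mRNA counts in CON calves, with a median of 1.36%, and 0.896% (calf 16) to 2.66% (calf 40) in VTM calves, with a median of 1.48%. CON calf 19, with 73028 rRNA and 591525 mRNA counts, stood at 3.48 times the next highest library, CON calf 7 (3.55%). The other 13 libraries spanned a 3.96-fold range. CON calves 25 (1.36%) and 31, high in every single gene, were not high in this ratio.

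On the log2 scale the ratio of rRNA to mRNA was -5.97 ± 0.66 in CON and -6.04 ± 0.58 in VTM calves (mean ± SD, n = 6 each, the 12 calves of the study), a difference of -0.07 that was smaller than the spread of either group. With all 14 calves it was -5.55 ± 1.27 and -6.14 ± 0.60 (n = 7 each), a difference of -0.59. Since rRNAs and mRNAs were both chosen by the contrast of the diets, this difference was not tested.

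Summed counts of the 3 tRNAs were 0.0323% to 0.0608% of the mRNA counts in CON (median 0.0456%) and 0.0287% to 0.0433% in VTM calves (median 0.0395%). The 14 libraries spanned a 2.12-fold range, and CON calf 19 lay inside it at 0.0369%. On the log2 scale the ratio was -11.07 ± 0.35 in CON and -11.38 ± 0.21 in VTM calves (n = 7 each), a difference of -0.32. On the 12 calves of the study it was -11.01 ± 0.35 and -11.36 ± 0.22 (n = 6 each), a difference of -0.35. The tRNAs and mRNAs were both chosen by the contrast of the diets, so neither difference was tested. The groups overlapped, and 5 CON calves lay above the highest VTM calf.

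For single tRNA genes the values were more scattered. ENSBTAG00000043545 had 343.2 ± 102.5 counts per 1000000 mRNA counts in CON and 289.1 ± 50.4 in VTM calves, and ENSBTAG00000043572 had 73.2 ± 16.4 and 63.9 ± 29.8 (mean ± SD, n = 7 each). ENSBTAG00000043582 had a median of 67.0 and at most 103.5 in CON calves, and a median of 26.1 and at most 37.3 in VTM calves. It rests on at most 39 counts in 12 of the 14 libraries. Its lowest CON calf (calf 1, 6 counts) and CON calf 31, at 34.6, lay within the range of the VTM calves.

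**Figure D3:**
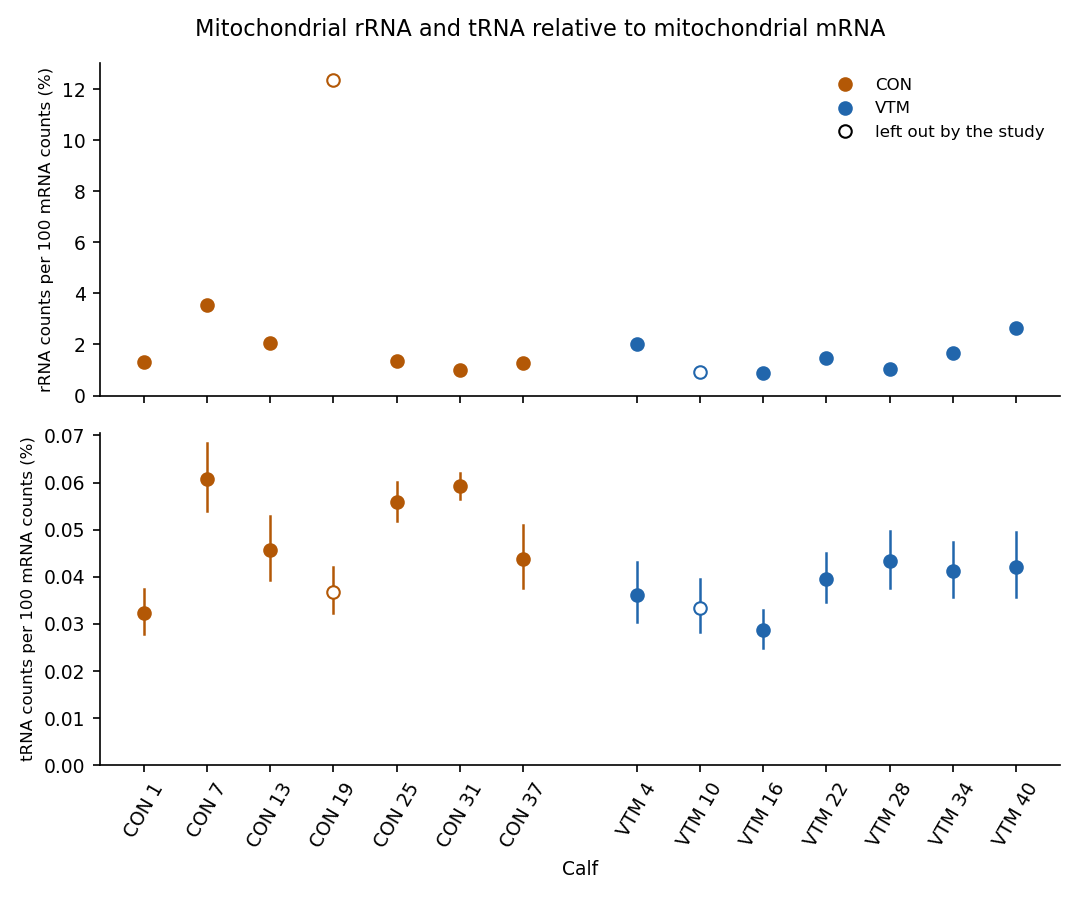
Summed rRNA counts (top) and summed tRNA counts (bottom) as a percentage of the counts of 12 mitochondrial mRNAs in each calf, with 95% Wilson intervals for counting error. CON calf 19 stands at 12.3% for rRNA, against 0.896% to 3.55% in the other 13 libraries, and at 0.0369% for tRNA, inside the range of the others.

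Relations across calves were tested on deviations from the group means, which takes out the difference between the groups. The choice of the genes still enters in part. CON calves 25 and 31 keep their deviations, and 0 of the 5 rRNA and tRNA genes passed the threshold without them. Levels were log2 counts per 1000000 counts outside the 17 mitochondrial genes, n = 14, and 4 relations were tested as 1 family by permutation within the groups (two-sided). Summed tRNA followed summed mRNA closely, with Pearson r = 0.96 (permutation p = 0.00015, adjusted p = 0.0006) and Spearman rho = 0.96 (permutation p = 1e-05, the smallest that 100000 permutations can give, adjusted p = 4e-05). Without the 2 calves farthest from the median mRNA level, CON calves 25 and 31, r was 0.73 (permutation p = 0.0203, adjusted p = 0.0812) and rho kept an adjusted permutation p of 0.0444, so the strength of the linear relation rests in part on those calves.

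Summed rRNA did not pass the test against mRNA, with r = 0.52 (permutation p = 0.195, adjusted p = 0.23) and rho = 0.57 (permutation p = 0.0774, adjusted p = 0.103), and r = 0.50 without CON calves 25 and 31. On the 12 calves of the study r was 0.78 (adjusted permutation p = 0.0316) and rho had an adjusted permutation p of 0.124. Between tRNA and rRNA, r was 0.50 (permutation p = 0.23, adjusted p = 0.23) and rho 0.59 (permutation p = 0.0589, adjusted p = 0.103), with r = 0.70 without CON calves 19 and 31. On the 12 calves r was 0.85 (adjusted permutation p = 0.00676), and rho, at 0.68, did not pass (adjusted permutation p = 0.0893). Without CON calf 19 alone, which was left out after its values were seen, r was 0.75 between rRNA and mRNA (adjusted permutation p = 0.0412) and 0.84 between tRNA and rRNA (adjusted permutation p = 0.00888), so that calf decided both calls by Pearson r. By rho neither passed without it (adjusted permutation p = 0.155 and 0.058).

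**Figure D4:**
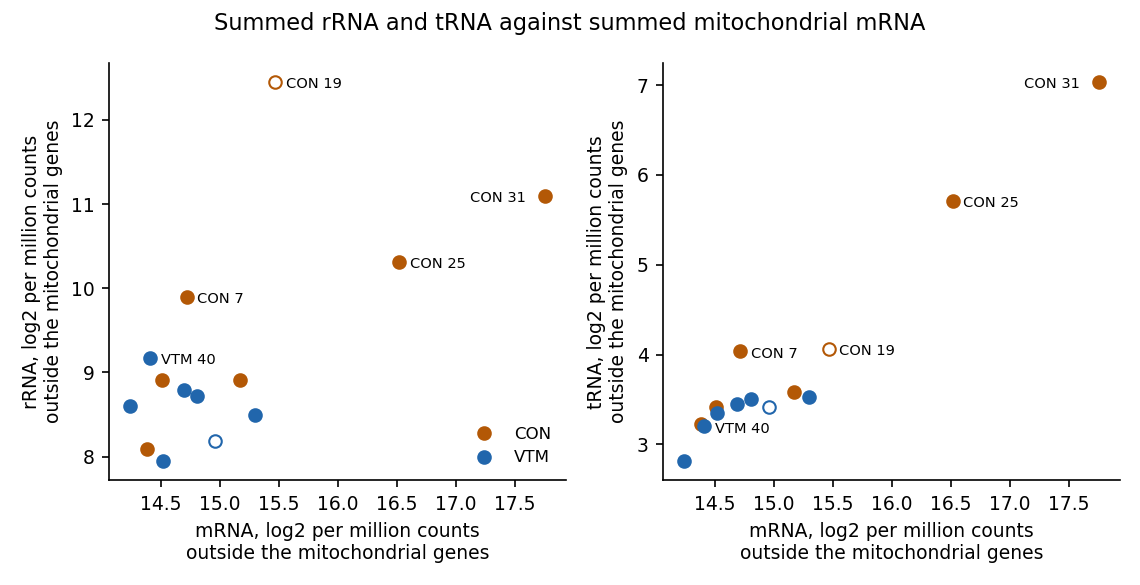
Summed rRNA (left) and summed tRNA (right) against summed mitochondrial mRNA in each calf, all as log2 counts per 1000000 counts outside the mitochondrial genes; open symbols are the 2 calves the study left out. The tRNA levels rise with mRNA up to CON calves 25 and 31, and CON calf 19 lies above the other libraries in rRNA only.

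CON calf 19 also differed in the make-up of its mRNA counts. ND6, a complex I subunit and the mRNA encoded on the strand opposite to the others, made up 0.951% of mRNA counts there (95% Wilson interval 0.927% to 0.976%) and 0.0750% to 0.329% in the other 13 libraries. In all, 7 of the 12 mRNAs had a larger share than in any other library, ND5 at 6.86% against 1.97% to 3.74% and ND2 at 4.81% against 2.23% to 3.55% among them. The shares of COX2, COX3 and ND3 were smaller than in any other library, with COX3 at 8.60% against 11.1% to 14.2%. COX1, the most counted mRNA, lay within the range of the others at 50.1%.

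**Figure D5:**
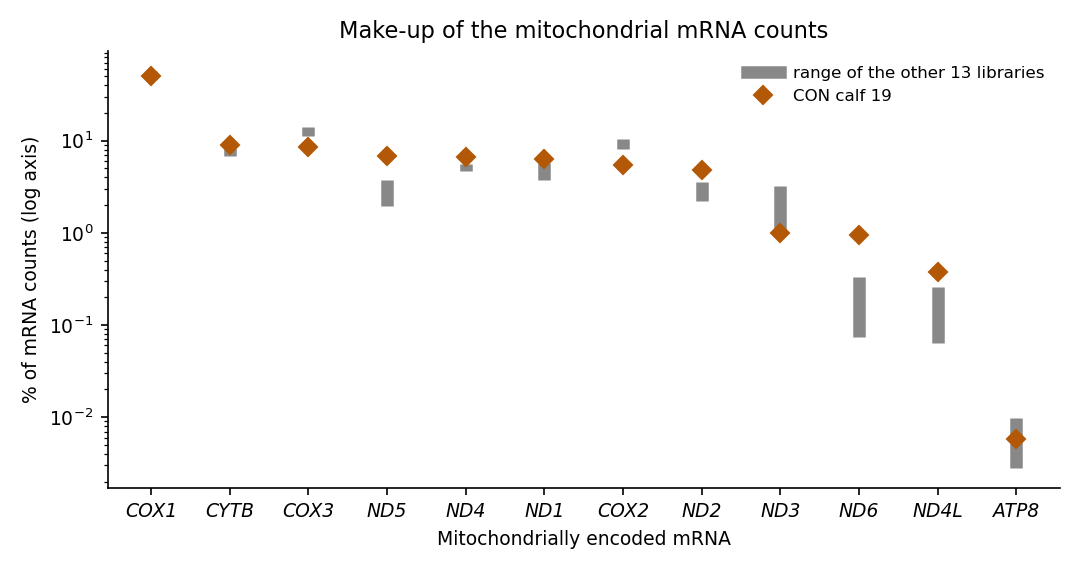
Share of each of 12 mitochondrial mRNAs in their summed counts (log axis) in CON calf 19 (diamonds) and the range over the other 13 libraries (grey bars). ND6 stands at 0.951% against at most 0.329%, and COX2, COX3 and ND3 lie below the range of the others.

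A list of 9 names or name starts of RNAs made in the nucleus without a poly(A) tail gave 2 genes. Both were paired only through the study's gene tables, which were chosen on the diet contrast. Their levels are therefore not independent of how they were paired. Other RNAs of this kind were not searched for. The RNA of nuclear RNase P, which trims the leaders of nuclear tRNAs, had 2917 counts (212.5 CPM) in CON calf 19 and 0 to 292 counts (up to 17.1 CPM) in the other 13 libraries. SNORD104, a small nucleolar RNA, had 0 counts in CON calf 19 and VTM calf 40 and 8 to 79 in the others. In VTM calf 40 both RNAs were at 0 counts, and in CON calf 19 the first was at its highest and the second at 0. The ratio of rRNA to mRNA had r = 0.35 with their sum across calves (permutation p = 0.216, adjusted p = 0.23) and rho = 0.30 (permutation p = 0.318, adjusted p = 0.318), and r = 0.47 without CON calf 19 and VTM calf 40. It turned to -0.13 on the 12 calves and to -0.14 without CON calf 19 alone. The part of RNA selection in these differences was not tested.

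The genes outside the 17 mitochondrial genes with the most similar log2 CPM over the 14 calves are given as a description, since points share library and depth. Genes without a paired name among them may themselves be mitochondrial. Of 13294 genes, EIF5B, a translation initiation factor, was nearest to both rRNA genes, with r = 0.90 for ENSBTAG00000043567 and 0.94 for ENSBTAG00000043570, or 0.80 and 0.85 without CON calf 19. The next 2 for each rRNA were genes with no paired name, and without CON calf 19 both were nearer than EIF5B (r = 0.81 and 0.82 for ENSBTAG00000043567, 0.87 each for ENSBTAG00000043570), so the rank of EIF5B rests on that library. At rank 6 for ENSBTAG00000043567 stood bta-mir-2887-1, with r = 0.88, or 0.86 without CON calf 19. Among the mitochondrial genes, ND6 was the mRNA nearest to both rRNAs (r = 0.87 and 0.89, or 0.74 and 0.76 without CON calf 19). Without that calf ND2 was nearer than ND6, at r = 0.77 and 0.86, so this rank too rests on CON calf 19. ENSBTAG00000043545 was instead nearest to COX3 and COX2 (r = 0.98 each, or 0.94 and 0.93 without CON calf 31). Outside the 17 genes it was nearest to ENSBTAG00000043584, which has no paired name (r = 0.97). Without CON calf 19, ND1 (r = 0.991) was nearer to it than COX2 (0.984) and COX3 (0.978). ENSBTAG00000033747, with no paired name, was then nearer (0.982) than ENSBTAG00000043584 (0.974). The third gene by likeness to ENSBTAG00000043572 was RND2, a small GTPase (r = 0.85, or 0.79 without CON calf 31). The first for ENSBTAG00000043582 was PLD2, a phospholipase D (r = 0.90, or 0.86 without CON calf 31). Without CON calf 19, ENSBTAG00000052917 (r = 0.92) was nearer to ENSBTAG00000043582 than PLD2 (0.90), so these ranks depend on single libraries as well.

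Of 89 listed nuclear factors for mitochondrial transcription, RNA processing, RNA decay, tRNA charging and the mitochondrial ribosome, 5 could be paired with an identifier, and these come from the same gene tables chosen on the contrast. All 5 passed the threshold in DESeq2, the test that chose them, and 4 passed it in edgeR, where 3.71% of all genes did and MRPL40 did not. PNPT1, an exoribonuclease of mitochondria, had a log2 difference of 0.55 (VTM minus CON, standard error 0.18), and at 0.53 without CON calf 31. CARS2, which charges the mitochondrial tRNA for cysteine, stood at -0.51 (0.23). The ribosomal proteins MRPL21, MRPL40 and MRPS15 stood at -0.57 (0.25), -0.63 (0.30) and -0.64 (0.28). Without CON calf 31 these 4 lay between -0.33 and -0.39.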

How the data were processed

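Per the labels, the libraries were strand-specific (NEBNext Ultra II Directional kit) and made from poly(A) RNA. The authors aligned reads with STAR 2.7.5 to the cow genome ARS-UCD1.2 and deposited raw gene counts, which are whole numbers. STAR's gene counting leaves out reads that overlap 2 genes, and which strand column was used is not given in the sources used here. The fit of the table used edgeR 4.0.16 in R 4.3.3 (filterByExpr, TMM, quasi-likelihood test, diet as the only term) on the 12 calves of the study. DESeq2 1.42.0, other size factors, no filter, all 14 calves and each calf left out in turn were tried as alternatives. The edgeR fit was tested on simulated data. CPM used total counts, ratios used summed counts, and patterns used log2(CPM + 0.5). Relations were computed on log2 of counts + 0.5 with group means removed. Intervals are 95% Wilson intervals and, like the floor of 3 counts, cover counting error only.

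Biotypes and 625 gene names came from the study's supplementary gene tables, used for names only. The genes and lists were chosen with earlier results of these data known. The genes named are the 5 rRNA and tRNA genes, the 12 mRNAs and genes among the 3 nearest in pattern to each of the 5. The others are list genes that could be paired, and bta-mir-2887-1. The RefSeq table used holds 0 genes with an Ensembl identifier and another genome build, so no position, length or sequence is given. The planned counts of list genes past the threshold, per list and direction, were not made, because only 5 of 89 entries could be paired. The calls of those 5 are given, and nothing is read from their number.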

Additional observations from a re-analysis of the deposited data

Results flagged for a closer look

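Of 26 groups of 7 calves examined, 11 held a calf far from the others by Dixon's gap test, and chance marks about 1 group in 20. Measures of 1 library are not independent of each other. In the CON group, calf 19 stood apart with 1912 CPM of ENSBTAG00000043567 (next highest 695.5), 3408 CPM of ENSBTAG00000043570 (next 1093), 5321 CPM of summed rRNA (next 1789), an rRNA to mRNA ratio of 12.3% (next 3.55%), an ND6 share of 0.951% of mRNA counts (next 0.268%) and 212.5 CPM of RNase P RNA (next 17.1). CON calf 31 stood apart with 90.8 CPM of ENSBTAG00000043545 (next 34.9), 107.1 CPM of summed tRNA (next 47.9) and 18.1% of counts in mitochondrial mRNA (next 8.57%). In the VTM group, calf 40 stood apart with 290.1 CPM of ENSBTAG00000043567 (next 155.4), and calf 4 with 6.91 CPM of RNase P RNA (next 1.40).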

How the results depend on the processing

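The 494 genes past the threshold became 630 with DESeq2, 1003 with no filter on low counts, 275 with all 14 calves, 263 without CON calves 25 and 31 (chosen after seeing the data) and 286 (without CON calf 31) to 1039 (without CON calf 37) with 1 calf left out. Only the fit without CON calf 1 gave genes at an adjusted p of at most 0.05 in edgeR (2 genes). The fold changes of the 5 genes stayed below 0 in every fit, and with 1 calf left out ranged from -1.63 to -0.76 for ENSBTAG00000043567, -1.53 to -0.78 for ENSBTAG00000043570, -2.41 to -0.94 for ENSBTAG00000043545, -1.89 to -1.01 for ENSBTAG00000043572 and -2.79 to -1.92 for ENSBTAG00000043582. With 1 of the 14 calves left out, the mean log2 ratio of VTM minus CON was -0.78 to -0.17 for rRNA, nearest to 0 without CON calf 19. For tRNA it was -0.40 to -0.25. On the 12 calves it was -0.07 for rRNA and -0.35 for tRNA. For rRNA against mRNA, Pearson r rose from 0.52 to 0.78 on the 12 calves and 0.75 without CON calf 19. For tRNA against rRNA it rose from 0.50 to 0.85 and 0.84. For tRNA against mRNA it fell to 0.73 without CON calves 25 and 31. For the rRNA to mRNA ratio against RNAs without a poly(A) tail it turned from 0.35 to -0.13 on the 12 calves and -0.14 without CON calf 19. The cause was not tested. TMM-scaled log2 CPM changed no call. No paired analysis was possible because each calf carries its own number and the groups share none. The 3 tRNA genes are limited by counts, down to 0 in 1 library.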
